A study of Mus musculus with 8 samples.

Results

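The genes described here are 8 inhibitors of cell cycle entry, taken by symbol from a fixed list: Cdkn1a, Cdkn1b, Rb1, Rbl1, Rbl2, Lats1, Lats2 and Wee1. All 8 were found among the 55421 Ensembl genes of the count table, and all 8 were among the 14647 genes that passed the expression filter. The libraries came from E14 mouse embryonic stem cells, of 129/Ola background, in which the microRNA cluster Mir290a to Mir295 had been deleted, so the control cells lacked the cluster as well and its effect on these genes was not analysed here. Cells in serum with the cytokine LIF, on gelatin, received a siPOOL (a complex mixture of small interfering RNAs against a single transcript) at 5 nM with Lipofectamine RNAiMax and were harvested after 36 h. There were 4 groups of 2 libraries: siTfap4, siWiz and siZic2, each against the mRNA of that transcription factor, and siNeg, a negative control siPOOL. The 2 libraries of each group are described as biological duplicates, and how many knockout clones they came from is not stated.

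Cells pass from G1 into S phase when cyclin-dependent kinases (CDKs) inactivate the pocket proteins, which hold E2F transcription factors in check. Cdkn1a (p21) and Cdkn1b (p27) bind and inhibit these kinases, and Rb1, Rbl1 (p107) and Rbl2 (p130) are the pocket proteins themselves. Lats1 and Lats2 are the kinases of the Hippo pathway that phosphorylate the coactivator Yap1, and Wee1 is a tyrosine kinase that inhibits Cdk1 and Cdk2 and is best known for delaying entry into mitosis. Embryonic stem cells have a short G1 phase, and the microRNAs of the deleted cluster are known there for repressing several of these inhibitors, Cdkn1a, Rbl2, Lats2 and Wee1 among the described targets.

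The microRNAs of the cluster are shown first because bases 2 to 7, shared by the 5 printed, define the sites searched for in the 8 transcripts. Capitals mark the seed, bases 2 to 8. RefSeq (GRCm38.p6) placed the forms listed there at chr7:3218639-3220837. Of the 6 forms from the 3' arm that were listed, 5 carried AAGUGC at bases 2 to 7, and 3 of them carried AAGUGCU at bases 2 to 8. The form miR-292a-3p was not listed.
miR-291a-3p: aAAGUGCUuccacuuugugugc
miR-294-3p: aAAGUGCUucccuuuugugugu
miR-295-3p: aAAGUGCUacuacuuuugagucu
miR-290a-3p: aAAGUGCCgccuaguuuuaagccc
miR-291b-3p: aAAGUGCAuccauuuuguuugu

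The longest annotated 3' UTR of each gene (GENCODE M21, GRCm38) was searched for GCACTT, which pairs with bases 2 to 7. A match that also had A before it (AGCACTT) or A after it (GCACTTA) was counted as a match of 7 bases, and one with both as a match of 8. The A before it pairs with base 8 in 3 of the 5 printed forms, and not in miR-290a-3p or miR-291b-3p. The A after it lies opposite base 1, outside the seed. Matches of at least 7 bases were found in 6 of the 8 genes, a share of 75%, against 17.7% of 21021 protein-coding genes. The members' UTRs were longer, with a median of 1619.5 bases against 961. The list also includes described targets of these microRNAs, Cdkn1a, Rbl2, Lats2 and Wee1. The choice of genes therefore favoured a higher share, and the contrast with all genes is a description only. Lats2 and Cdkn1a had 2 such matches each, and Rbl1, Rbl2, Lats1 and Wee1 had 1 each. Rb1 had a single match of 6 bases, and the 3439-base UTR of Cdkn1b held no GCACTT. The sites of at least 7 bases are printed because they separate Cdkn1b and Rb1 from the other members, and the single site of Rb1 is added. Matches of 6 bases in Cdkn1a, Rbl2 and Wee1 are not printed. The matched bases are in capitals and the strand is that of the transcript.
Cdkn1a (chr17:29099814-29099835): cctcagacctgaatAGCACTTt
Cdkn1a (chr17:29100486-29100507): accgtgggtgtcaaAGCACTTA
Rbl1 (chr2:157147477-157147498): ctttgcctgatcaaAGCACTTt
Rbl2 (chr8:91123816-91123837): gtatttttcaataaAGCACTTA
Lats1 (chr10:7714142-7714163): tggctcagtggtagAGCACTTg
Lats2 (chr14:57691086-57691107): tacagtatggaaagAGCACTTA
Lats2 (chr14:57690987-57691008): gtgttgtatctgatAGCACTTg
Wee1 (chr7:110142591-110142612): tatatccaactgggAGCACTTt
Rb1 (chr14:73196361-73196382): cagtacaacccaagtGCACTTt
The GCACTT of the 8-base match in Rbl2 began at base 1385 of a UTR of 1398 bases, next to the annotated transcript end. A match describes letters only, and none of these sites was tested, since all 8 libraries came from cells without the cluster.

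**Figure D1:**
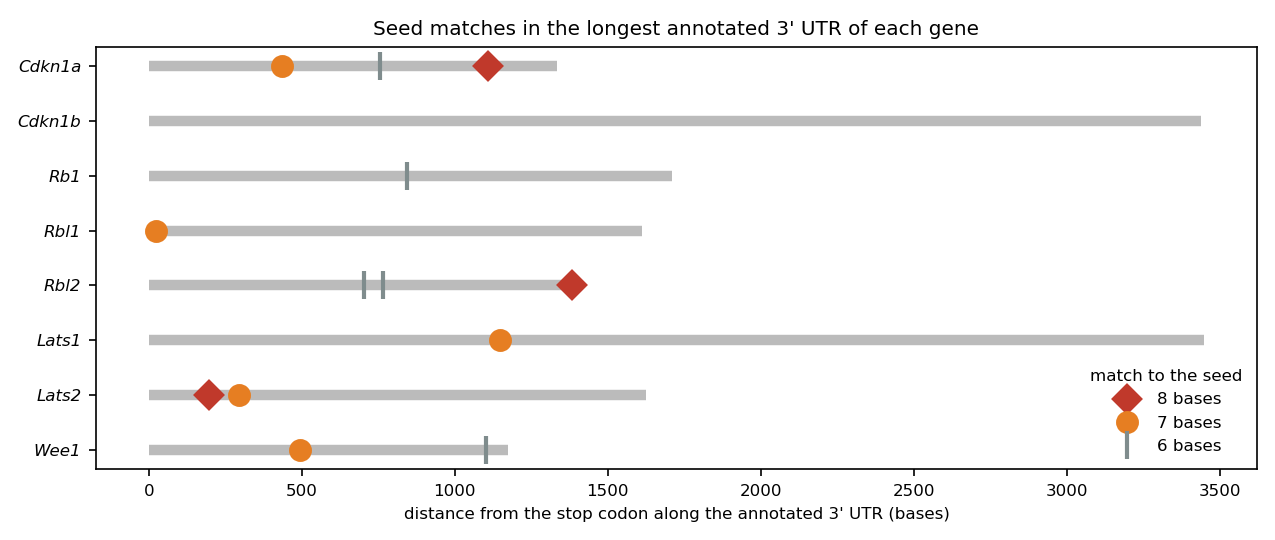
Each grey bar is the longest annotated 3' UTR of a gene, drawn by distance from the stop codon in bases. Symbols mark GCACTT, alone or with A beside it, by length of the match. Matches of at least 7 bases lie in 6 of the 8 genes, Rb1 has 1 match of 6 bases and Cdkn1b has none.

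Library totals ran from 8326675 to 13788856 counted reads, with both siTfap4 libraries at the low end. The siTfap4 libraries also had the fewest genes detected (19271 and 19432, against 19616 to 21170) and the highest share of counts in their top 50 genes (24.3% and 24.4%, against 19.96% to 22.01%). The part of these differences in the siTfap4 results was not tested. Tfap4 itself fell in siTfap4 (log2 fold change -1.34, adjusted p = 0.00417). Wiz in siWiz stood at 16.8 and 19.7 CPM, against 49.9 and 46.1 CPM in siNeg (log2 -1.40, unadjusted p = 4.83e-05 in edgeR). After adjustment over all genes tested it was not called (adjusted p = 0.708). Zic2 in siZic2 held few counts, 31 and 17 against 54 and 23 in siNeg. It was not called either (-0.75, unadjusted p = 0.120, adjusted p = 0.9997). All 10 pluripotency markers were detected in every library, with a summed level of 2741 to 2939 CPM in siTfap4 and 3013 to 3567 CPM in the other groups. They did not move together. In siTfap4 against siNeg 2 were called higher and 1 lower, beside 4.24% and 11.7% of all genes, and their median log2 change was -0.04. The 7 fibroblast markers summed to 6.80 to 11.7 CPM, the 7 primitive endoderm markers to 6.21 to 10.9 CPM, the 5 neural markers to 49.1 to 86.6 CPM and the 7 trophectoderm markers to 152 to 287 CPM. Most of the neural sum was Tubb3 (group means of 46.7 to 55.8 CPM). Most of the trophectoderm sum was Tfap2c (group means of 170 to 215 CPM). Between 2 and 5 fibroblast markers were at 0 in each library. Between the 2 siTfap4 libraries 35.6% of the genes tested had a ratio over 1.5, against 19.1% to 30.6% in the other groups, while the chi-square of the counts per degree of freedom was larger for the siNeg pair (37.7) than for the siTfap4 pair (30.5). Among the 8 members that ratio was exceeded by 4 in siTfap4, all lower in replicate 1, by 1 in siNeg and by 0 in siWiz and siZic2. Levels are CPM, read counts scaled to library size with TMM factors, and a mean is given ± SD of 2 libraries. A call means an adjusted p under 0.05 in the quasi-likelihood test of edgeR, with p-values adjusted by Benjamini-Hochberg across the 14647 genes.

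In siTfap4 against siNeg, 3 of the 8 genes changed: Cdkn1a rose, and Cdkn1b and Rb1 fell. Over all genes tested 15.9% were called, 4.24% higher and 11.7% lower. Those calls numbered 621 higher and 1709 lower, but 6 and 498 without siTfap4 replicate 1 and 55 and 702 without siNeg replicate 1. The members' median log2 change was -0.34, beside 0.01 for all genes tested. The siTfap4 and siNeg libraries did not overlap for 6 of the 8 genes (2 higher, 4 lower), beside 59.1% of all genes in either direction. Of the 3 calls, 1 was left when siTfap4 replicate 1 or either siNeg library was omitted. In bulk RNA of this kind, fewer cells with a transcript and less of it per cell cannot be told apart.

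**Figure D2:**
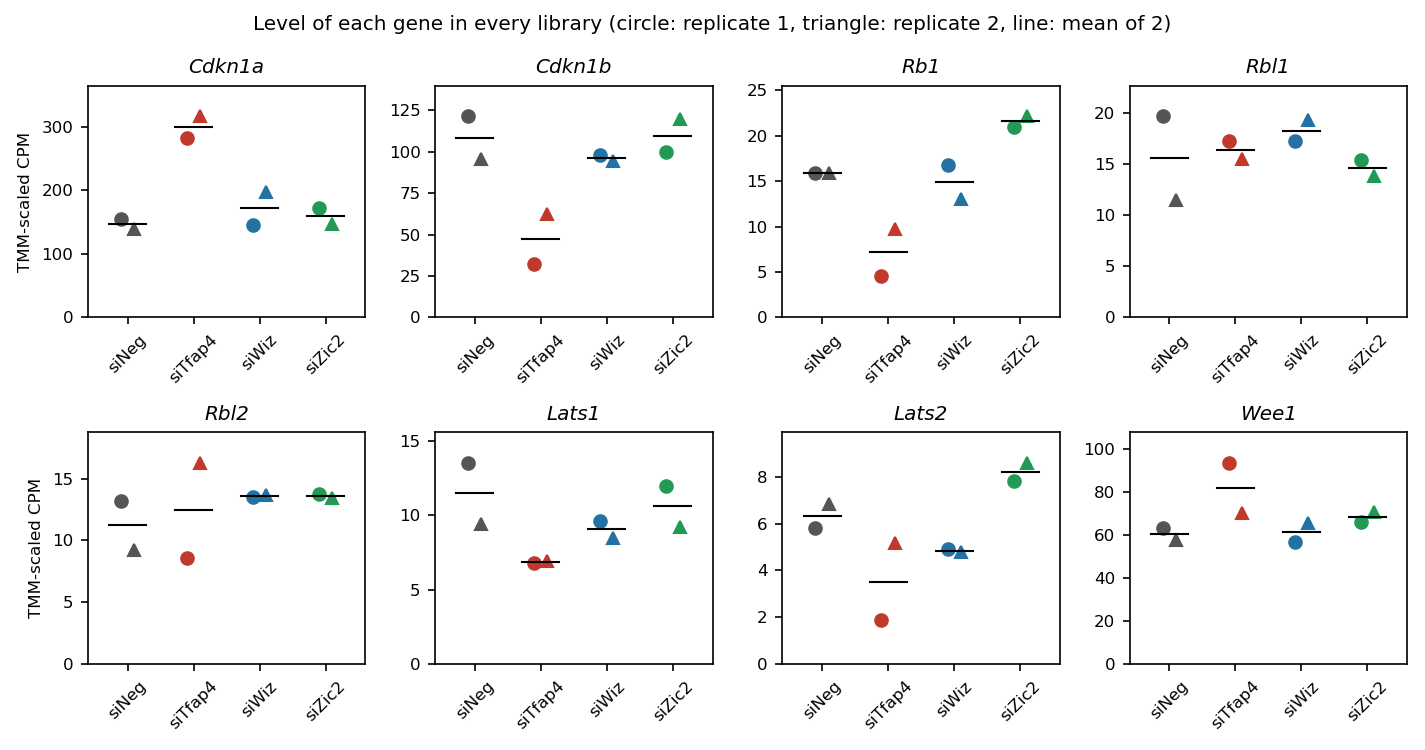
The TMM-scaled CPM of each gene is plotted for every library by group, with circles for replicate 1, triangles for replicate 2 and a line at the mean of 2. The siTfap4 libraries lie above all others for Cdkn1a and below all others for Cdkn1b and Rb1, and the circle lies well under the triangle for Cdkn1b, Rb1, Rbl2 and Lats2 in siTfap4.

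Cdkn1a (ENSMUSG00000023067; chromosome 17, 29090976 to 29100727, plus strand), the CDK inhibitor that p53 induces, stood at 282 and 317 CPM in siTfap4. It stood at 155 and 140 CPM in siNeg, 146 and 198 CPM in siWiz, and 173 and 146 CPM in siZic2. Both siTfap4 libraries were above all 6 others, and the libraries of the remaining groups overlapped. The gene rose 2.03-fold against siNeg (log2 fold change 1.02, SE 0.24, adjusted p = 0.0126; 95% interval of the fold 1.43 to 2.89). Against siWiz the fold was 1.74 (adjusted p = 0.0362) and against siZic2 1.88 (adjusted p = 0.0154). Alternative fits kept the call in 8 of 17 cases against siWiz (log2 0.53 to 1.02). Against siZic2 the call was kept in 14 of 18 (log2 0.52 to 1.01). The mean order was siTfap4, siWiz, siZic2 and siNeg, of which the last 3 overlapped. Without siNeg replicate 2 the adjusted p against siNeg was 0.0524 (log2 0.94). The last 300 bases of the transcript were 52.0% G and C, against a median of 42.3% for the coding genes tested, and with a correction for GC content and length the log2 change was 0.71 (adjusted p = 0.0316). The tails of the 2 genes called lower were below that median, at 33% for Cdkn1b and 34.3% for Rb1, as were those of the other 5 members (24.7% to 34.7%). The part of base composition in what remained after the correction was not tested.

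Tfap4 is a basic helix-loop-helix factor that binds E-boxes, CANNTG, with a preference for CAGCTG, and Cdkn1a is among its described targets. RefSeq promoter windows, from 250 bases before to 50 after a start site, were available for 6 of the 8 genes. On either strand CAGCTG was present in 16.3% of 32851 such windows, and CANNTG, which includes it, in 72.3%. The windows of Cdkn1a are printed because the gene rose in siTfap4, and that of Rbl1 because it is the other member with CAGCTG. Capitals mark every CANNTG, and each sequence reads along the gene's own strand.
Cdkn1a, upstream start (chr17:29090729-29091028, plus strand): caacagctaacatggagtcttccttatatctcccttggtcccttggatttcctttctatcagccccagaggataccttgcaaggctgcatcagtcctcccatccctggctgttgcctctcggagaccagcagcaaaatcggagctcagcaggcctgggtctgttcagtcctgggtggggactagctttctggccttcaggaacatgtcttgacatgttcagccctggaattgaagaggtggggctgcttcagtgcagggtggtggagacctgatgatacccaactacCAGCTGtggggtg
Cdkn1a, downstream start (chr17:29093519-29093818, plus strand): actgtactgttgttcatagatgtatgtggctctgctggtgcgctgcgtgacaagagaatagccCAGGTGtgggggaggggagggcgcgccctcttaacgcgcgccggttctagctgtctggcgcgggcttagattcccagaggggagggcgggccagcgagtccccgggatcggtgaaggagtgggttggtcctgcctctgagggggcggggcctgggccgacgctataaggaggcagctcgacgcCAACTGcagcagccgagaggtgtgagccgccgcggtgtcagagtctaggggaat
Rbl1 (chr2:157204485-157204784, minus strand): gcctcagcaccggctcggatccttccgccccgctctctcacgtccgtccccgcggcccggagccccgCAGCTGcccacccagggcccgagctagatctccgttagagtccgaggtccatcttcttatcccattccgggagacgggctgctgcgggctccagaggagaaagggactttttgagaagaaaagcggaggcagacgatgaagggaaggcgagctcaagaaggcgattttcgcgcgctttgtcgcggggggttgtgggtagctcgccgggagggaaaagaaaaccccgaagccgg
CAGCTG began 38 bases after the upstream Cdkn1a start and 183 bases before the start of Rbl1. The downstream Cdkn1a window held other E-boxes, beginning at positions -187 and -4 from the start site. Rbl1 had the same letters as Cdkn1a and a log2 change of 0.06 in siTfap4. Of the 1858 genes tested with CAGCTG in a promoter window, 5.33% rose and 10.5% fell in siTfap4. For the 8419 with windows but without it the shares were 4.28% and 13%. Reads from 3' ends do not tell which Cdkn1a start was used. These libraries do not measure binding of Tfap4, and the part of these letters in any change was not tested. The windows of Cdkn1b, Rbl2 and Lats1 held no CANNTG, and the 2 windows of Lats2 held 3 but no CAGCTG. The E2F-type letters TTTGGCGC and TTTCCCGC, searched on both strands, were in no member's window (0.514% and 1.07% of all windows). The letters TTTGAA, known from cell cycle promoters, were in 1 window each of Rbl2 and Lats2 (17.9% of all windows).

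Cdkn1b (ENSMUSG00000003031; chromosome 6, 134920401 to 134925513, plus strand), the second CDK inhibitor of the family in this list, moved opposite to Cdkn1a. It measured 32.5 and 62.5 CPM in siTfap4, against 122 and 95.5 CPM in siNeg, 98.3 and 94.4 CPM in siWiz and 100 and 120 CPM in siZic2. Every siTfap4 value was below every other value, but the 2 siTfap4 libraries themselves were 1.92-fold apart. The gene fell 2.28-fold against siNeg (log2 fold change -1.19, SE 0.29, adjusted p = 0.0166). It was also lower than in siWiz (log2 -1.02, adjusted p = 0.0320) and in siZic2 (-1.21, adjusted p = 0.0112). Alternative fits kept the call in 13 of 17 cases against siWiz and in 16 of 18 against siZic2. Without siTfap4 replicate 1, the lower of the pair, the log2 change against siNeg was -0.81 (adjusted p = 0.133), and without siNeg replicate 1 it was -0.99 (adjusted p = 0.109). With the correction for GC content and length it was -0.92 (adjusted p = 0.0276). The change was -1.75 (adjusted p = 0.00115) when siTfap4 replicate 2 was left out.

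Rb1 (ENSMUSG00000022105; chromosome 14, 73183673 to 73325822, minus strand), the retinoblastoma protein gene, was the only pocket protein gene called. Its level was 4.59 and 9.73 CPM in siTfap4, from 37 and 83 counts. The siNeg libraries stood at 15.9 and 16.0 CPM, siWiz at 16.8 and 12.99 CPM and siZic2 at 21.0 and 22.2 CPM. The groups kept an order of siZic2, siNeg, siWiz and siTfap4, in which siNeg and siWiz overlapped. Rb1 fell 2.21-fold in siTfap4 against siNeg (log2 -1.15, SE 0.33, adjusted p = 0.0337). It was also lower than in siWiz (-1.05, adjusted p = 0.0482) and siZic2 (-1.59, adjusted p = 0.00561). Alternative fits kept the call in 8 of 17 cases against siWiz (log2 -1.70 to -0.62). Against siZic2 it was kept in 17 of 18 (-2.24 to -1.15). The call against siNeg was lost without siTfap4 replicate 1 (log2 -0.72, adjusted p = 0.251), without siNeg replicate 1 or 2 (adjusted p = 0.119 and 0.0721), without siZic2 replicate 1 or 2 (0.0553 and 0.0556), with the compared groups alone (0.0501) and with the correction for GC content and length (0.0561). Without siTfap4 replicate 2 the change was -1.80 (adjusted p = 0.00357). The 3' end of Rb1 meets Rcbtb2 on the opposite strand, and Rcbtb2 was lower in siTfap4 as well, at 18 and 51 counts beside 106 and 90 for siNeg. Whether the counting used strand is not given in the sources used here, so reads of the overlapping ends cannot be told apart.

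Rbl1 (ENSMUSG00000027641; chromosome 2, 157145893 to 157204534, minus strand) did not pass the test in any comparison. It stood at 17.2 and 15.5 CPM in siTfap4, 19.7 and 11.5 CPM in siNeg, 17.3 and 19.3 CPM in siWiz and 15.4 and 13.9 CPM in siZic2. The siNeg libraries spanned the values of both siTfap4 and siZic2 libraries, and its log2 change in siTfap4 had a 95% interval of -0.56 to 0.68. Rbl2 (ENSMUSG00000031666; chromosome 8, 91070057 to 91123844, plus strand) likewise passed in none. It measured 8.56 and 16.3 CPM in siTfap4, 13.2 and 9.23 CPM in siNeg, 13.6 and 13.7 CPM in siWiz and 13.7 and 13.4 CPM in siZic2. The siTfap4 pair enclosed all other values, and the log2 change against siNeg was 0.15 (95% interval -0.55 to 0.85). It was -0.41 without siTfap4 replicate 2. Aktip overlaps the end of Rbl2 on the opposite strand and was the more heavily counted gene, with 290 and 317 counts in siTfap4 against 69 and 139 for Rbl2.

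Neither Hippo kinase gene was called, and both had few counts in every library. Lats1 (ENSMUSG00000040021; chromosome 10, 7681214 to 7716460, plus strand) stood at 6.82 and 6.92 CPM in siTfap4 and 13.6 and 9.42 CPM in siNeg, with 9.63 and 8.499 CPM in siWiz and 12.0 and 9.25 CPM in siZic2. Both siTfap4 libraries were under all 6 others (log2 -0.74 against siNeg, SE 0.31, adjusted p = 0.116; 95% interval -1.41 to -0.08). Lats2 (ENSMUSG00000021959; chromosome 14, 57689662 to 57758388, minus strand) stood at 1.86 and 5.16 CPM in siTfap4, from only 15 and 44 counts. Its siNeg libraries held 5.82 and 6.82 CPM, its siWiz libraries 4.90 and 4.77 CPM and its siZic2 libraries 7.83 and 8.61 CPM. The siTfap4 pair lay below siNeg and siZic2 and enclosed siWiz. The log2 change of Lats2 was -0.84 against siNeg (SE 0.43, adjusted p = 0.190) and -1.22 against siZic2 (adjusted p = 0.0520). Against siZic2 it passed with the replicate block (-1.27, adjusted p = 0.0270), DESeq2 (0.0477), library totals alone (0.0440), no filter beyond 1 count (0.0177), the filter at 5 CPM (0.0450) and without siTfap4 replicate 2 (0.00541). The 2 siTfap4 libraries were 2.77-fold apart. Without siTfap4 replicate 2 the change against siNeg was -1.77 (adjusted p = 0.0180), and without replicate 1 it was -0.30 (adjusted p = 0.728). The gene model Gm49361, which shares the strand and the end of Lats2, had 0 counts in all 8 libraries.

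Wee1 (ENSMUSG00000031016; chromosome 7, 110122046 to 110143286, plus strand) was higher in both siTfap4 libraries than in siNeg without passing the test. It measured 93.7 and 70.3 CPM in siTfap4 and 63.1 and 57.7 CPM in siNeg, with 56.9 and 65.8 CPM in siWiz and 66.3 and 70.6 CPM in siZic2. The siTfap4 and siZic2 values overlapped. The log2 change against siNeg was 0.44 (SE 0.23, adjusted p = 0.202; 95% interval -0.05 to 0.94), and with the correction for GC content and length it was 0.75 (adjusted p = 0.0286). An antisense gene at its end, 1600010M07Rik, had at most 4 counts in any library.

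**Figure D3:**
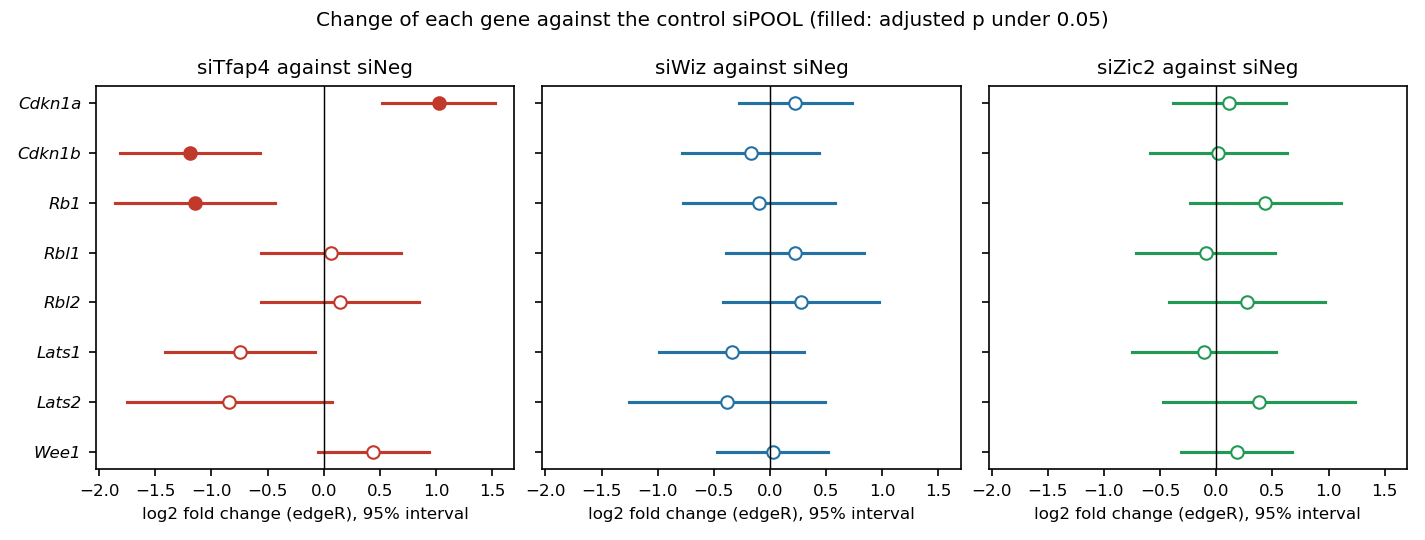
Points give the log2 fold change of each gene against siNeg with its 95% interval, in 1 panel per siPOOL, and filled points passed an adjusted p under 0.05. Only the siTfap4 panel has filled points, Cdkn1a at 1.02, Cdkn1b at -1.19 and Rb1 at -1.15, and every interval in the other panels includes 0.

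In siWiz and in siZic2 against siNeg, edgeR called 0 of the 8 genes. It called 0% of all genes in each comparison, and 0 members had an unadjusted p under 0.05 in either. DESeq2 also called 0 members in both. The median log2 change of the members was -0.04 in siWiz and 0.15 in siZic2. In siWiz the libraries did not overlap siNeg for Rbl2 (log2 0.27) and Lats2 (-0.38), beside 25.1% of all genes in either direction. In siZic2 they did not overlap for 4 of the 8, Rb1 (0.44), Rbl2 (0.27), Lats2 (0.38) and Wee1 (0.18), all higher. Over all genes 23.8% did not overlap there, counted in either direction, and the share that lay higher was not computed. The 95% interval of Rb1 in siZic2 (-0.23 to 1.11) left out the fall called in siTfap4 (-1.15, interval -1.86 to -0.44) but allowed a rise of up to 1.11. That of Lats2 in siWiz (-1.26 to 0.49) included the siTfap4 estimate of -0.84, which was not called. For Cdkn1a the interval reached 0.73 in siWiz and 0.62 in siZic2, below the siTfap4 estimate of 1.02 but within its interval of 0.52 to 1.53. All 3 comparisons share the siNeg libraries.

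Between siPOOLs, Cdkn1a, Cdkn1b and Rb1 were the called members in siTfap4 against siWiz (15.1% of all genes called) and in siTfap4 against siZic2 (23.1%), with the directions given above. Calls over all genes were 4.66% higher and 10.4% lower against siWiz, and 8.41% higher and 14.7% lower against siZic2. In each comparison the libraries did not overlap for 6 of the 8 members, beside 61.7% of all genes against siWiz and 66.8% against siZic2. In siTfap4 against siWiz, edgeR called 0 members without siTfap4 replicate 1 or siWiz replicate 1, and 1 without siWiz replicate 2 or either siZic2 library. In siTfap4 against siZic2 it called 1 without siTfap4 replicate 1 or siZic2 replicate 2. In siWiz against siZic2 edgeR called 0 members (0% of all genes), with 0 at an unadjusted p under 0.05 and 0 by DESeq2. The siWiz libraries were below the siZic2 libraries for Cdkn1b, Rb1, Lats2 and Wee1, and above them for Rbl1. That made 5 of 8 without overlap, beside 35% of all genes.

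**Figure D4:**
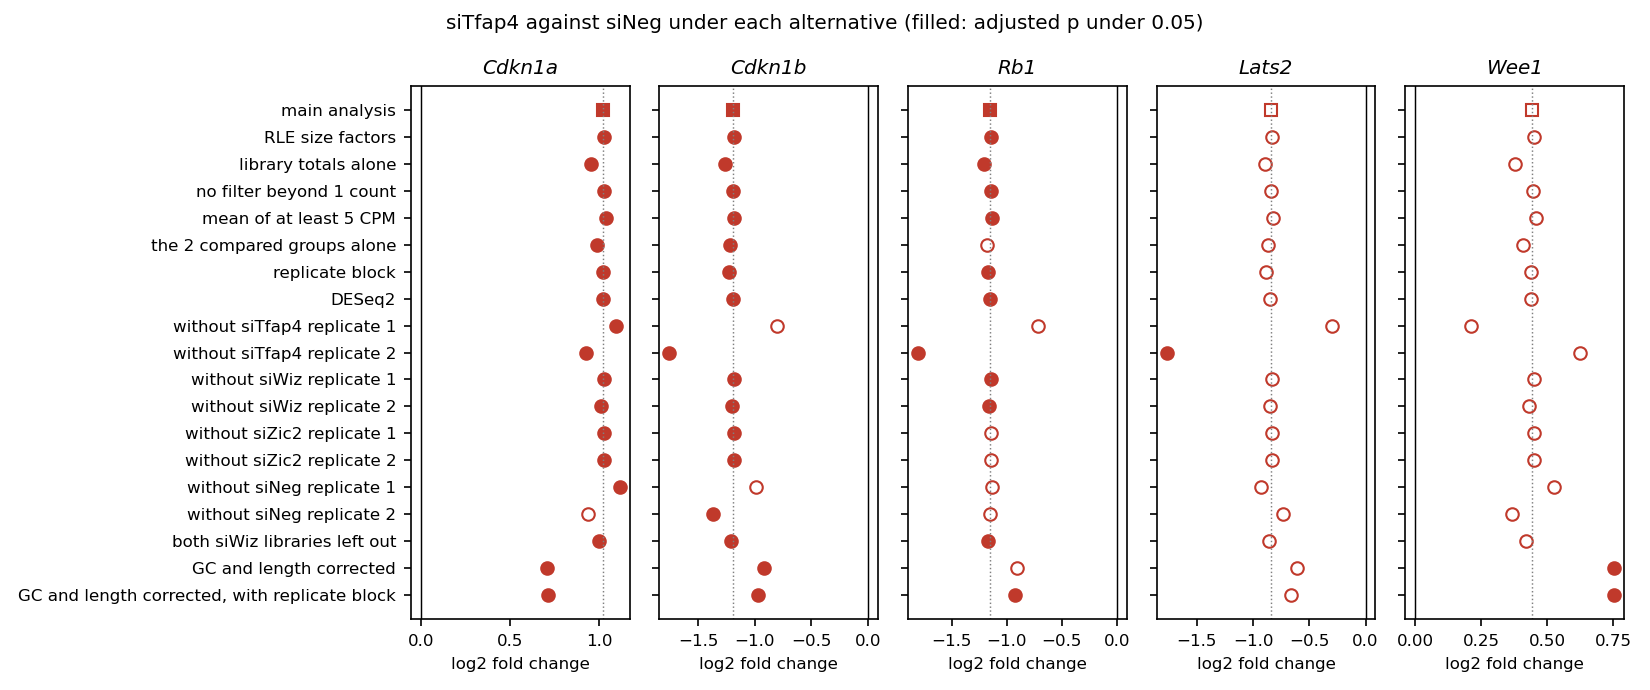
The log2 fold change in siTfap4 against siNeg is shown for 5 genes under each alternative way of fitting, with filled symbols for an adjusted p under 0.05 and a separate scale in each panel. Leaving out siTfap4 replicate 1 or 2 moves Cdkn1b, Rb1 and Lats2 the most, to -0.81 and -1.75, -0.72 and -1.80, and -0.30 and -1.77, while Cdkn1a stays between 0.71 and 1.12.

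The genes around the 8 members were described in siTfap4 against siNeg, from lists of related cell cycle genes, to be read beside the 4.24% higher and 11.7% lower over all genes. Among 5 other CDK inhibitors tested, of 6 listed, 2 fell and none rose. These were Cdkn2a, which encodes p16 and p19ARF (22.4 ± 0.459 CPM in siNeg and 7.30 ± 5.76 CPM in siTfap4; log2 -1.61, adjusted p = 0.0321), and Cdkn2b, which encodes p15, for which siTfap4 held 3 and 1 counts and siNeg 23 and 15. Leaving out siTfap4 replicate 1 or either siNeg library left 0 calls, and leaving out either siZic2 library left 1; Cdkn2a stood at -0.98 (adjusted p = 0.215) without siTfap4 replicate 1. Of 15 activators of the G1 to S transition, 3 rose and 4 fell. Cdk2, the kinase that partners cyclins E and A, fell from 66.1 ± 21.7 to 20.0 ± 5.00 CPM (log2 -1.72, adjusted p = 0.00563). The cyclin gene Ccnd1 fell too (-1.28, adjusted p = 0.00339), and E2f2, an activating E2F, rose from 60.1 ± 0.977 to 128 ± 20.9 CPM (1.09, adjusted p = 0.00920). Without siTfap4 replicate 1 or siNeg replicate 1, 0 of the 15 rose and 1 fell, and without either siZic2 library 1 rose and 3 fell.

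Of 13 partners of the pocket proteins 5 fell and 0 rose, with a median log2 change of -0.39. Over all genes 11.7% fell and 4.24% rose, so lower calls were the more common throughout this comparison. E2f4, the E2F most often bound to Rbl2, stood at 77.5 ± 5.24 CPM in siNeg and fell to 11.2 ± 5.95 CPM in siTfap4 (log2 -2.79, adjusted p = 0.000415). Tfdp1, the dimer partner of E2Fs, fell from 52.3 ± 5.80 to 15.3 ± 4.68 CPM (-1.77, adjusted p = 0.00170). Lin52, which joins Rbl1 or Rbl2 to the DREAM repressor complex, fell to 6 and 7 counts from 98 and 37 (-2.89, adjusted p = 0.00477). E2f4 and Tfdp1 passed with any 1 library left out, and the adjusted p of Lin52 was 0.0501 without siNeg replicate 1. The count fell to 3 without siTfap4 replicate 1 and to 2 without siNeg replicate 1. Of 18 E2F target genes 6 fell and 0 rose, with a median of -0.21, beside the same 11.7% and 4.24%. Those that fell included the helicase subunit genes Mcm4 (-2.49) and Mcm6 (-1.42) and the ribonucleotide reductase gene Rrm2 (-1.95). Of the E2F targets 3 fell when siTfap4 replicate 1 or siNeg replicate 2 was omitted. When siTfap4 replicate 2 was omitted 2 rose and 7 fell, and 1 rose with the replicate block, with DESeq2 and with the correction for GC content and length.

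Of 15 Hippo pathway partners 3 fell and 0 rose, with a median of -0.27, beside 11.7% lower and 4.24% higher over all genes. The split depended on the fit: 1 rose and 3 fell with the replicate block and with DESeq2, 2 rose and 5 fell with the correction for GC content and length, and 2 rose and 6 fell with that correction and the block. Sav1, the scaffold that brings the upstream kinases to Lats1 and Lats2, fell from 9.58 ± 2.68 to 2.22 ± 0.679 CPM (log2 -2.10, adjusted p = 0.00459). The Lats substrate Yap1 fell from 177 ± 15.7 to 72.6 ± 38.8 CPM (-1.29, adjusted p = 0.0148), and Amotl2, which binds Yap1, was at -1.38 (adjusted p = 0.00579). Without siTfap4 replicate 1 edgeR called 0 of the 15, with an adjusted p of 0.0553 for Sav1, 0.0969 for Yap1 and 0.0618 for Amotl2. Of 4 Yap1 target genes tested 1 fell, Ccn2, a secreted matrix protein gene, whose siNeg libraries held 272 and 41 counts and whose siTfap4 libraries held 5 and 7. The adjusted p of Ccn2 was 0.0827 when siTfap4 replicate 1 was left out and 0.101 when siNeg replicate 1 was.

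Among 9 genes that act on or beside the substrate of Wee1, 2 fell and 0 rose: Cdk1 itself (log2 -2.68, adjusted p = 0.00195) and its cyclin Ccnb2 (-0.79, adjusted p = 0.0471). The call of Ccnb2 was lost in 7 of the 8 fits that leave out 1 library. Of 17 p53 target genes tested besides Cdkn1a, 0 rose and 2 fell, with a median of 0.02, a count near the 11.7% lower over all genes. Gadd45a, a growth arrest gene, fell from 107 ± 19.8 to 27.6 ± 4.96 CPM (-1.96, adjusted p = 0.00167), and the death receptor gene Tnfrsf10b was at -1.19 (adjusted p = 0.0278). The call of Tnfrsf10b was lost without siTfap4 replicate 1 (adjusted p = 0.184) and without siNeg replicate 1 (0.107) or 2 (0.0571). Of 8 other described targets of the deleted microRNAs tested, 1 rose and 2 fell. Those that fell were Mbd2, which binds methylated DNA (-1.97), and Fbxl5, a ubiquitin ligase subunit of iron sensing (-1.001). Without siTfap4 replicate 1 edgeR called 0 of the 9 then tested, and without siNeg replicate 1 it called Mbd2 alone. Over the whole table, 3.87% of 2582 genes with a seed match of at least 7 bases rose and 11.2% fell. Of 9854 genes with a 3' UTR and no such match 4.71% rose and 13.1% fell. In siWiz and siZic2 edgeR called 0 genes of these lists. At an unadjusted p under 0.05 there was 1 gene each among the other CDK inhibitors, the activators and the Yap1 targets in siWiz, and 0 in siZic2.

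**Figure D5:**
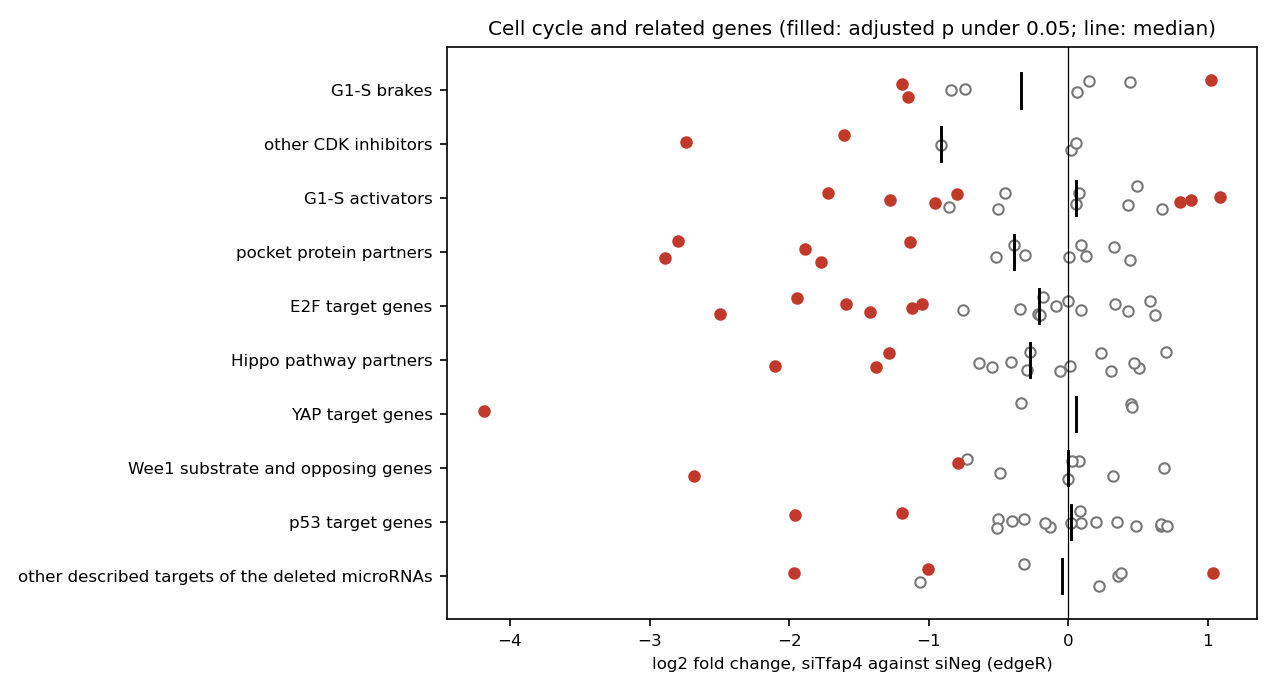
Each point is the log2 fold change of 1 gene in siTfap4 against siNeg, by list, with filled points past an adjusted p under 0.05 and a line at the list's median. The called partners of the pocket proteins, E2F targets and Hippo partners all lie below 0, while the 8 inhibitors and the G1 to S activators have called genes on both sides.

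The genes whose log2 CPM ran most like each called member over the 8 libraries were sought among 10133 genes of at least 5 CPM. For Cdkn1a they were Snord89 (Pearson r = 0.99), Sdccag8 (0.99) and Dnajc25 (0.97). For Cdkn1b they were Atp6v1h, Cmc1 and Riok2 (0.996 each), and for Rb1 Elavl1, Zc3h14 and Lix1l (0.99 each). These values describe 8 libraries in 4 groups, where the distance of siTfap4 from the rest weighs in every r.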

How the data were processed

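RNA for 8 libraries was extracted with Trizol and 500 ng was made into 3' end libraries (QuantSeq FWD kit), per the labels' protocols. The authors deposited raw counts of reads per Ensembl gene, with no normalization. Trim Galore and GRCm38 are named in the submitters' processing notes, while for the aligner, counter, annotation, strand setting and any molecular identifiers nothing is given in the sources used here. Each column was mapped to its library by title. Of 55421 identifiers, 55154 were matched to a symbol. Library totals of 8326675 to 13788856 limit the precision of the low genes.

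Counts were filtered with filterByExpr, scaled by TMM and tested by quasi-likelihood in edgeR 4.0.16 (R 4.3.3), with 1 mean per group and all 8 libraries in 1 fit (common dispersion 0.0495, 4 residual degrees of freedom). SE values and 95% intervals came from the F statistic. The code was tested on simulated data. Duplicate libraries were not repeats of 1 library: the chi-square of their counts was 17.7 to 37.7 times its degrees of freedom. P-values compare a change with the spread between these libraries. The spread of each gene was drawn toward that of the other genes, with 9.7 prior degrees of freedom.

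The members and lists were chosen with earlier results of these data known. Named by rule were all 8 members, up to 3 called genes of smallest p per list, and the 3 genes most like each called member. The result of 1 gene that this rule names is not reported here. Alternatives were other scalings (RLE, library totals), filters, the compared groups alone, a replicate block, DESeq2 1.42.0 and each library left out; a library whose partner was left out is taken to vary as the other groups do. Chosen after seeing the data were both siTfap4 or both siWiz libraries left out, and a correction of protein-coding genes for transcript length and for GC content in the final 300 bases, with and without the block. Ends of the members were compared with all transcripts by blastn 2.17.0; apart from Aktip, which overlaps Rbl2, no other gene matched over 100 bases at 90% identity.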

Additional observations from a re-analysis of the deposited data

How the results depend on the processing

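In siTfap4 against siNeg the 8 members gave 3 calls, and between 1 and 4 with 1 library left out; all genes gave 2330 calls, and between 504 and 3322. Of the 2330, 621 were higher and 1709 lower; omitting siTfap4 replicate 1 gave 6 and 498, omitting siNeg replicate 1 gave 55 and 702, and there were 957 and 1634 with the GC and length correction. Against siWiz the members gave 0 to 2 and all genes 401 to 3279 when 1 library was left out, and with these groups alone 0 members and 1411 genes were called. Against siZic2 the ranges were 1 to 4 members and 905 to 4057 genes. For all genes in siWiz against siNeg, no filter beyond 1 count gave 12 calls and DESeq2 gave 1, and in siWiz against siZic2 no filter gave 23.

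Only values that did not pass the test changed sign. With library totals alone Rbl1 in siTfap4 stood at -0.014. Cdkn1b in siZic2 stood at -0.0021 with the replicate block, at -0.046 with the GC and length correction and at -0.067 with both. With 1 library left out, log2 changes against siNeg ran from -0.28 to 0.52 for Rbl1 and from -0.41 to 0.53 for Rbl2 in siTfap4. In siWiz they ran from -0.012 to 0.43 for Cdkn1a, -0.34 to 0.026 for Cdkn1b, -0.29 to 0.074 for Rb1, -0.11 to 0.68 for Rbl1 and -0.087 to 0.13 for Wee1. In siZic2 they ran from -0.15 to 0.24 for Cdkn1b, -0.43 to 0.38 for Rbl1 and -0.35 to 0.21 for Lats1.

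The replicate numbers are not stated to mark a shared batch, so they were not taken as pairs in the main fit. Replicate differences correlated at -0.043 between siTfap4 and siWiz. For every other pair of groups the correlation was positive, from 0.13 to 0.33. Whether replicates of the same number shared a batch was not tested. The replicate block kept 3 member calls in siTfap4 against siNeg, 1 higher and 2 lower, with 3243 calls over all genes, and gave 4 in siTfap4 against siZic2, Lats2 added. The cause of these shifts was not tested. Depth limits Lats2, with 15 to 113 counts per library.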
